A study of Mus musculus with 34 samples.

Results

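Clade B serpins are the intracellular branch of the serpin superfamily of protease inhibitors, and 26 mouse genes of the clade were followed here through irradiated skin. The members are the gene symbols that begin with Serpinb and a digit, carry a protein-coding name and stand on a single row of the expression tables. This gave 26 of the 47393 symbols with a single row, out of 28 Serpinb symbols in all. Serpinb10 was left out because its symbol stands on 2 rows, and Serpinb1-ps1 because it is a pseudogene.

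RNA of mouse skin was sequenced from animals aged 8 to 10 weeks. Back skin, with its hair in the growth phase, was taken from mice of 3 genotypes, wild type, Krt17 knockout and p53 knockout, unirradiated (0 h) or 6 h or 24 h past a dose of 5 Gy. Footpad was taken from wild type and Krt17 knockout alone, unirradiated (T0) or at points called T3, T6 and T9 past a dose of 40 Gy. The labels attach no unit of time to these points. The labels name each knockout only by its gene, so the allele, a promoter or driver line and any pooling of animals are not given in the sources used here. The 34 samples form 17 groups of 2, and the tables hold 1 value per gene and group, the authors' mean FPKM (fragments scaled by transcript length and by the number of mapped fragments). No spread between samples, no test and no p-value can therefore be given, and the depth behind each value is unknown. Differences are given as log2 ratios of (FPKM + 1), and a gene is counted as higher or lower from 2-fold on. Low FPKM values give smaller ratios on that scale than their own ratio would be.

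A serpin exposes a reactive centre loop that a protease cuts as if it were a substrate. The cut loop inserts into the serpin and traps the protease in a covalent complex, so each inhibitor molecule is used once. Clade B members mostly lack a cleaved signal peptide and act inside cells. In stratified epithelia they are known for protecting keratinocytes from their own lysosomal proteases and from the proteases of immune cells. The mouse genes form a pair of clusters. In the GENCODE M21 annotation of GRCm38 the chromosome 1 cluster spans chr1:106861173-107610484 and holds 11 members, the chromosome 13 cluster spans chr13:32842092-34002794 and holds 15. Some human genes of the clade have several mouse counterparts, among them Serpinb3a to Serpinb3d.

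The FPKM columns summed to between 854202 and 1095024. Krt17 stood at 14.7 to 68.1 FPKM in the 7 Krt17 knockout groups and at 92.6 to 1919 FPKM in the 10 others. Trp53, which encodes p53, stood at 18.0 to 28.8 FPKM in the 3 groups labelled p53 knockout and at 19.3 to 43.8 FPKM in the 3 wild-type back skin groups, so its RNA level does not check that label. The summed hair follicle markers reached 9342 to 17390 FPKM in back skin and 5.67 to 65.6 FPKM in footpad, which is skin without pelage hair. Skeletal muscle markers summed to 2178 FPKM in unirradiated wild-type back skin, the lowest of the 9 back skin groups, of which the other 8 stood between 3162 and 5320.3 FPKM. In bulk skin, fewer cells of a type and less RNA per cell cannot be told apart.

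The Serpinb3 genes include the member with the largest radiation ratio and are close copies, so the sequence before their starts is shown first. Coding sequences of Serpinb3a, Serpinb3b, Serpinb3c and Serpinb3d were 86.8% to 93.4% identical in pairs. The 250 bases upstream of the RefSeq starts (GRCm38.p6, minus strand) are printed for 3 of them, at chr1:107052304-107052553, chr1:107161115-107161364 and chr1:107278372-107278621 in this order. Capitals mark bases that differ from Serpinb3b within the aligned stretch, 17 of them in Serpinb3a and 11 in Serpinb3c, and bases outside the alignment stay in lower case.
Serpinb3a: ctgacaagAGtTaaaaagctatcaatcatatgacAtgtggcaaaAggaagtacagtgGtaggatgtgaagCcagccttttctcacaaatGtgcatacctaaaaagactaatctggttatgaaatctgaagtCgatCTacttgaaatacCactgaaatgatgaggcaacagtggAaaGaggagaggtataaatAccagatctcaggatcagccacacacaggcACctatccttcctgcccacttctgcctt
Serpinb3b: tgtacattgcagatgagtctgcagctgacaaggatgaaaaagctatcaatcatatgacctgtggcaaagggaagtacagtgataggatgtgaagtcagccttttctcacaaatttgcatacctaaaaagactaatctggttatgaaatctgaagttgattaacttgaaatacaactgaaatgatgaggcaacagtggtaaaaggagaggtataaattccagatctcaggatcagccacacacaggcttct
Serpinb3c: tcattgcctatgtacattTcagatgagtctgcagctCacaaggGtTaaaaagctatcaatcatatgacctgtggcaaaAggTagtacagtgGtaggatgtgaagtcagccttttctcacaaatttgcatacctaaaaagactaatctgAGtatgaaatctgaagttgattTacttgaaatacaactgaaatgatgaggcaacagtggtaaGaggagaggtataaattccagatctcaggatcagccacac
The windows were 92.5% identical between Serpinb3a and Serpinb3b over 226 aligned bases, 94.0% between Serpinb3a and Serpinb3c over 216, and 95.4% between Serpinb3b and Serpinb3c over 240. The window of Serpinb3d gave no alignment of comparable length with the other 3. Genes this alike can share reads. Of the 50-base windows of the transcripts, 15.04% in Serpinb3a, 14.7% in Serpinb3b, 13.4% in Serpinb3d and 12.2% in Serpinb3c also occur in another gene. The annotated span of Serpinb3b also overlaps that of Serpinb3c by 7161 bases on the same strand. How the authors assigned such reads is not given in the sources used here, so the split between these genes is uncertain.

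The summed FPKM of the clade was higher in footpad than in back skin, through its chromosome 1 members. The 2 tissues are in separate tables, so their levels are only set side by side. The 26 members summed to 1595 to 2698 FPKM in the 8 footpad groups, which is 0.162% to 0.272% of the column total. In the 9 back skin groups they summed to 427 to 564 FPKM, or 0.0456% to 0.0602% of the total. The 11 chromosome 1 members summed to 1515 to 2456 FPKM in footpad and 258 to 386 FPKM in back skin. For the 15 chromosome 13 members the sums overlapped, at 79.9 to 242 FPKM in footpad and 128 to 238 FPKM in back skin. Between 11 and 14 members reached 10 FPKM in a footpad group, against 6 or 7 in a back skin group. Of 18 members that reached 1 FPKM in at least 1 group, 11 were higher in all 8 footpad groups than in any back skin group. Of all 15482 genes compared, 7.11% did so. One member, Serpinb6e, was lower in all footpad groups, against 23.7% of all genes. The groups overlapped for the other 6, Serpinb1a, Serpinb6a, Serpinb6b, Serpinb6d, Serpinb8 and Serpinb9. Differentiated keratinocyte markers (7 of 8 listed genes measured) summed to 50661 FPKM in unirradiated wild-type footpad and 3441 FPKM in unirradiated wild-type back skin. Basal keratinocyte markers, all 6 measured, summed to 7064 and 4278 FPKM in these groups. Ivl, Casp14, Krt15 and Trp63 of these lists were higher in the back skin group. The part of these markers in the tissue difference was not tested.

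**Figure D1:**
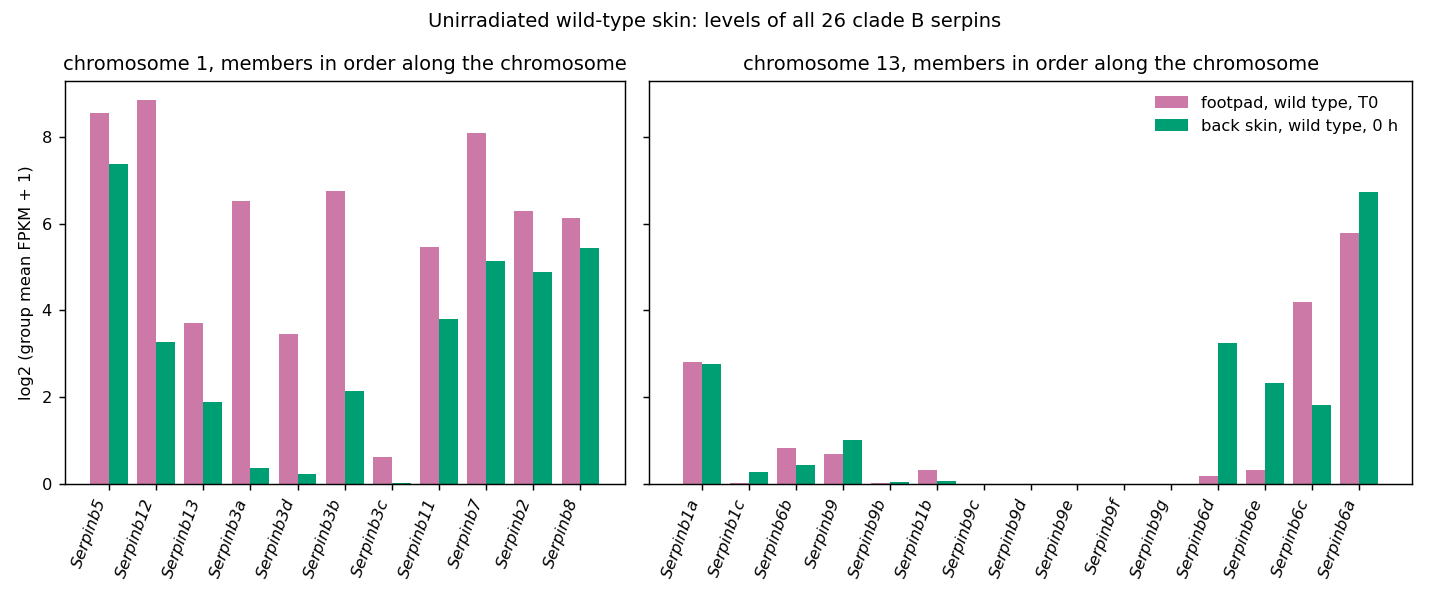
Levels of all 26 members in unirradiated wild-type skin, as log2 (group mean FPKM + 1), for footpad (pink) and back skin (green), in order along chromosome 1 (left) and chromosome 13 (right). The bars of all 11 chromosome 1 members are taller in footpad, with Serpinb12 at 459 FPKM against 8.63. On chromosome 13 Serpinb6d, Serpinb6e and Serpinb6a are taller in back skin, as are the low bars of Serpinb9, Serpinb1c and Serpinb9b.

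On chromosome 1, all 11 members reached more than 10 FPKM in at least 1 footpad group. Serpinb12, whose human counterpart inhibits trypsin-like proteases, had the highest level of the clade there, up to 819 FPKM, against 11.5 FPKM at most in back skin. Serpinb5 (maspin), known in human epithelium as a tumour suppressor that does not act as a protease inhibitor, reached 401 FPKM in footpad and 204 in back skin. Serpinb7 reached 360.1 FPKM in footpad and 54.4 in back skin; loss of its human counterpart causes a thickening of palm and sole skin. Serpinb2 (plasminogen activator inhibitor type 2), an inhibitor of urokinase, reached 161 FPKM in footpad and 58.9 in back skin. Serpinb8, an inhibitor of furin in human studies, was nearer to equal, with 69.9 FPKM at most in footpad and 52.8 in back skin. Serpinb11 reached 55.2 and 16.0 FPKM, and Serpinb13 (headpin in human, an inhibitor of cathepsins L and K) 15.9 and 4.03 FPKM.

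The human counterparts of the Serpinb3 genes are the squamous cell carcinoma antigens, which inhibit papain-like cathepsins, cathepsin G and chymase. Serpinb3a reached 504 FPKM in footpad and 2.83 in back skin. Serpinb3b reached 179 and 7.50 FPKM. Serpinb3d reached 90.0 FPKM and Serpinb3c 45.8 FPKM in footpad, and both stayed below 1 FPKM in every back skin group, at 0.315 and 0.339 FPKM at most.

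On chromosome 13 a single gene was abundant in both tissues. Serpinb6a, an inhibitor of trypsin-like proteases and cathepsin G, reached 213 FPKM in back skin, the highest level of the clade in that tissue, and 110.4 FPKM in footpad. The 213 FPKM belong to Krt17 knockout skin at 24 h, and Serpinb5 was the highest member in every other back skin group. Of the 50-base windows of Serpinb6a, 25.1% also occur in other genes, 12.5% in the neighbouring Nqo2. Its relatives divided between the tissues. Serpinb6c reached 87.9 FPKM in footpad against 5.70 in back skin, whereas Serpinb6e reached 8.62 FPKM in back skin against 0.246 in footpad and Serpinb6d 8.56 against 2.28. Serpinb6b reached 1.22 FPKM in footpad and 0.737 in back skin. Serpinb1a, the mouse counterpart of the inhibitor of neutrophil elastase, cathepsin G and proteinase 3, reached 40.7 FPKM in footpad and 13.4 in back skin. Serpinb9, which inhibits granzyme B and protects cytotoxic lymphocytes, stayed at 1.05 FPKM or less in footpad and 1.07 or less in back skin.

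The remaining 8 members did not reach 1 FPKM in any of the 17 groups. They are Serpinb1b with 0.615 FPKM at most, Serpinb1c with 0.413, Serpinb9b with 0.629, Serpinb9c with 0.0600, Serpinb9f with 0.0860, Serpinb9g with 0.0309, and Serpinb9d and Serpinb9e, which were listed at 0 throughout. Of the transcript windows of Serpinb9f, 78.7% also occur in another gene, as do 54.8% of those of Serpinb9g. After this filter of 1 FPKM in at least 1 group, 17 members were compared in footpad and 15 in back skin.

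After 40 Gy, the members that were higher in footpad came from the Serpinb3 genes, Serpinb6c and Serpinb1a. Serpinb3c and Serpinb6c were higher than in the unirradiated group of the same genotype in all 6 comparisons, and the members lower by 2-fold were Serpinb6d and Serpinb13, both in Krt17 knockout footpad. Wild-type footpad had 4 of 17 members higher at T3, 4 at T6 and 5 at T9, where 1.48%, 2.47% and 3.15% of all genes were higher. No member was lower at these points, against 1.62%, 1.34% and 1.63% of all genes. The members' median log2 ratios were 0.41, 0.25 and 0.31, beside 0.04, 0.04 and 0.02 over all genes. These 3 comparisons share the wild-type T0 column. Krt17 knockout footpad had 2 members higher at T3, 5 at T6 and 2 at T9, where 1.99%, 4.0% and 2.2% of all genes were higher. One member was lower at each point, against 1.14%, 2.23% and 1.75% of all genes. The members' medians were 0.18, 0.31 and 0.08, beside 0.06, 0.00 and 0.09 over all genes. These 3 comparisons share the Krt17 knockout T0 column.

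Taking both genotypes together, the 6 irradiated footpad groups stood above both unirradiated groups for 5 of the 17 members, Serpinb3a, Serpinb3c, Serpinb6c, Serpinb1a and Serpinb2. Of all genes, 13.1% did so. No member had all 6 irradiated groups below both unirradiated ones, against 6.67% of all genes.

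Serpinb3c (ENSMUSG00000073601, chr1:107271201-107278371, minus strand) was near absent at T0 and present at each later point. Its wild-type footpad values were 0.551 FPKM at T0, 7.75 at T3, 13.9 at T6 and 7.50 at T9. In Krt17 knockout footpad it stood at 1.52, 20.3, 45.8 and 42.1 FPKM. All 6 irradiated groups lay above both unirradiated ones, and the knockout groups above the wild-type group of the same point. The log2 ratios to T0 were 2.50, 3.26 and 2.45 in wild type and 3.08, 4.21 and 4.10 in the knockout. In back skin at 0, 6 and 24 h it had 0.0108, 0.0901 and 0.0227 FPKM in wild type, 0.0271, 0.0255 and 0 in Krt17 knockout and 0.339, 0.0119 and 0.0122 in p53 knockout skin, so the highest of the 9 was unirradiated p53 knockout skin.

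Serpinb6c (ENSMUSG00000052180, chr13:33879816-33905708, minus strand) was at similar levels in both genotypes. Wild-type footpad had 17.2 FPKM at T0, then 68.6, 65.0 and 62.5 at T3, T6 and T9. Krt17 knockout footpad had 23.8 FPKM at T0, then 74.9, 87.9 and 52.7. The lowest irradiated group was thus more than 2-fold above the higher of the unirradiated groups. The log2 ratios were 1.93, 1.86 and 1.80 in wild type and 1.61, 1.84 and 1.11 in the knockout. Of its transcript windows 9.92% also occur in other genes, with 3.28% of all its windows found in Serpinb6b, so a part of its reads may be shared.

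Serpinb3a (ENSMUSG00000044594, chr1:107045587-107052303, minus strand) differed between the genotypes before irradiation. Wild-type footpad had 91.0 FPKM at T0 and 306, 269 and 296 FPKM at T3, T6 and T9. Krt17 knockout footpad had 244 FPKM at T0 and 303, 504 and 348 FPKM later. The wild-type T0 group is the lowest of the 8 and stands far below the knockout T0 group, which lies close to the wild-type irradiated groups. The log2 ratios to T0 were 1.74, 1.55 and 1.69 in wild type and 0.31, 1.04 and 0.51 in the knockout, where T6 alone passed 2-fold.

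Serpinb3d (ENSMUSG00000058017, chr1:107078167-107083506, minus strand) was also lowest in wild type at T0. From T0 to T9 it had 9.93, 61.0, 41.2 and 35.1 FPKM in wild-type footpad and 39.6, 69.8, 90.0 and 47.9 FPKM in Krt17 knockout footpad. Knockout T0 lay above wild-type T9. The log2 ratios were 2.51, 1.95 and 1.73 in wild type and 0.80, 1.16 and 0.27 in the knockout. In back skin it had 0.176, 0.152 and 0.155 FPKM in wild type, 0.209, 0.205 and 0.139 in Krt17 knockout and 0.315, 0.158 and 0.0606 in p53 knockout skin. Serpinb3b stayed below 2-fold throughout, with 108, 171, 136 and 153 FPKM in wild-type and 144, 163, 179 and 143 FPKM in knockout footpad, wild-type T0 being the lowest of these too.

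Serpinb1a (ENSMUSG00000044734, chr13:32842092-32851185, minus strand) peaked at different points in the genotypes. From T0 to T9 the wild type had 5.98, 10.6, 11.1 and 21.9 FPKM, and the Krt17 knockout 10.4, 16.2, 40.7 and 18.5 FPKM. The highest group was T9 in wild type, with a log2 ratio of 1.71, and T6 in the knockout, with 1.87, and the other 4 ratios lay between 0.59 and 0.80. These were also the groups with the highest summed stressed keratinocyte markers (8 of 10 listed genes measured, among them Krt6a, Krt6b and Krt16), 17486 FPKM in wild type at T9 and 17042 FPKM in the knockout at T6, while the other 6 footpad groups lay between 772 and 4642 FPKM. Neutrophil markers, all 10 measured, summed to 2.29 to 4.59 FPKM in the 8 footpad groups, with Ly6g at 0.459 FPKM or less. Of these markers only Cxcr2, at 1.59 to 2.87 FPKM, reached 1 FPKM in a footpad group, so the sum rests largely on that gene. Macrophage markers, all 8 measured, summed to 99.4 FPKM at wild-type T0 and 205 FPKM at T9, and to 116 and 242 FPKM in the knockout at T0 and T6, although wild-type T6 with 11.1 FPKM of Serpinb1a had the highest macrophage sum, 253 FPKM. The part of these markers in the Serpinb1a values was not tested.

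**Figure D2:**
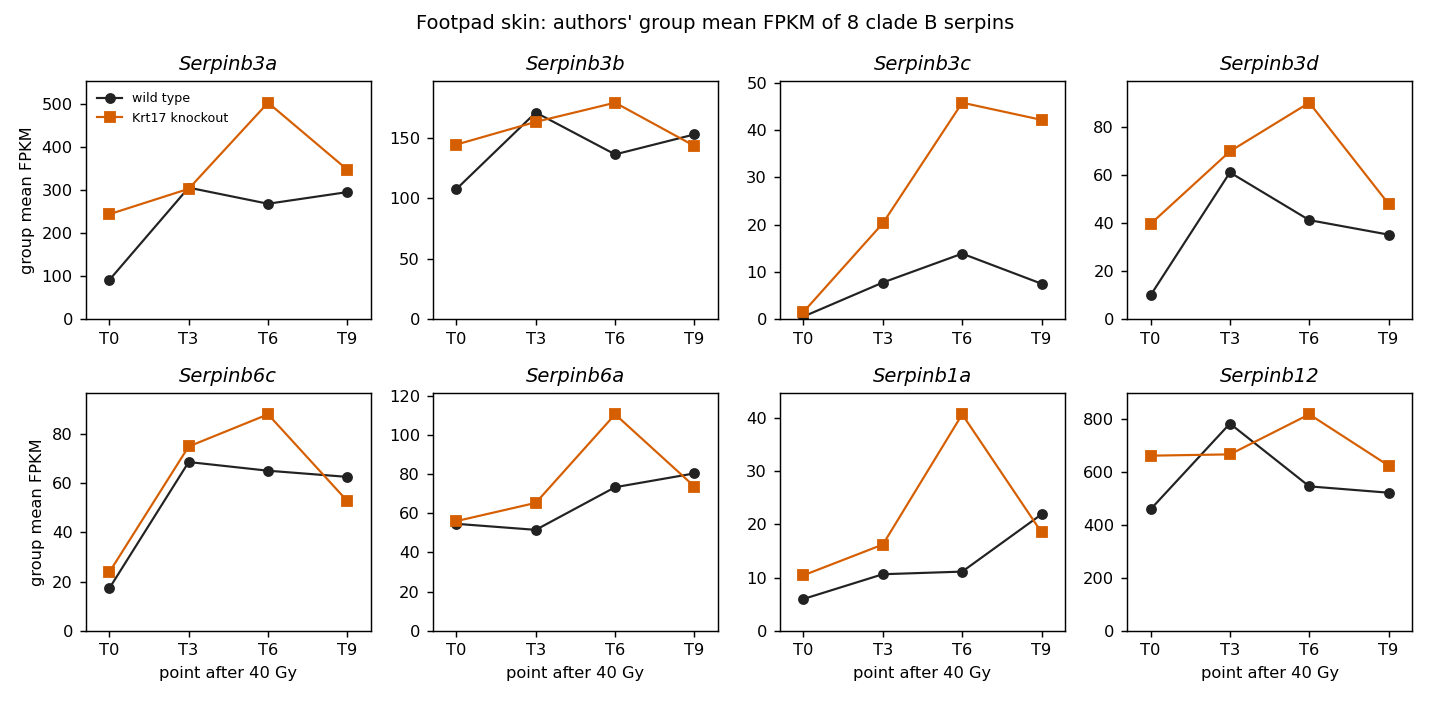
Group mean FPKM of 8 members in footpad at T0 and at T3, T6 and T9 after 40 Gy, for wild type (black circles) and Krt17 knockout (orange squares); each point is 1 authors' mean of 2 samples, lines join points of a genotype and points are spaced evenly. Serpinb3c and Serpinb6c lie low at T0 in both genotypes, Serpinb3a and Serpinb3d lie lowest at wild-type T0, and Serpinb1a is highest at knockout T6 with 40.7 FPKM.

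Serpinb12, Serpinb5, Serpinb7, Serpinb8 and Serpinb2 stayed within 2-fold of T0 in all 6 footpad comparisons. Serpinb12 (ENSMUSG00000059956, chr1:106934449-106957080, plus strand) had 459, 784, 546 and 522 FPKM in wild type and 662, 667, 819 and 625 FPKM in the knockout, with wild-type T0 lowest. Its log2 ratios lay between -0.08 and 0.77. Serpinb5 stood at 307 to 401 FPKM, Serpinb7 at 201 to 360.1 and Serpinb8 at 47.3 to 69.9, with irradiated groups on both sides of the unirradiated ones. For Serpinb5 and Serpinb8 only wild-type T3 lay above both T0 groups, for Serpinb8 at 69.92 against 69.66 FPKM at wild-type T0. Serpinb2 had 77.3, 132, 99.1 and 124 FPKM in wild type and 91.7, 121, 161 and 122 FPKM in the knockout, so that each irradiated group was higher than both T0 groups, at log2 ratios of 0.35 to 0.81. Of its transcript windows 10.4% also occur in Serpinb10, its neighbour on the chromosome.

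Serpinb6a had 54.6, 51.5, 73.2 and 80.3 FPKM in wild-type footpad and 56.0, 65.3, 110.4 and 73.6 FPKM in the knockout, with a largest log2 ratio of 0.97 at knockout T6. Serpinb13 (ENSMUSG00000048775, chr1:106980984-107001195, plus strand) was lowest at the last point in both genotypes. It had 12.2, 14.3, 10.3 and 8.70 FPKM in wild type and 14.0, 15.9, 11.5 and 6.40 FPKM in the knockout, and its log2 ratio passed 2-fold at knockout T9 alone, at -1.02. In back skin Serpinb13 had 2.72, 3.49 and 2.34 FPKM in wild type, 3.41, 3.38 and 2.198 in Krt17 knockout and 3.33, 4.03 and 3.16 in p53 knockout skin, all within 2-fold of 0 h. Serpinb6d (ENSMUSG00000047889, chr13:33661405-33671581, plus strand) had 2.28 FPKM at knockout T0 and 0.624, 0.0717 and 1.23 FPKM later. It is the member counted as lower at knockout T3 and T6, at -1.02 and -1.62, while wild-type footpad had 0.136, 0.155, 0 and 0.114 FPKM. Serpinb6d passed the filter of 1 FPKM in footpad only through knockout T0 and T9. Knockout T0 is also the base of these ratios, so the counts as lower are not independent of the filter.

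In back skin after 5 Gy, 0 to 2 of the 15 members differed by 2-fold in a given direction. The members concerned were Serpinb12, Serpinb6d, Serpinb3a and Serpinb1a, of which Serpinb1a alone was higher. Wild-type back skin had 0 of 15 members higher and 1 lower at 6 h, where 1.78% of all genes were higher and 3.17% lower. At 24 h 1 member was higher and 1 lower, against 2.14% and 3.41% of all genes. The members' medians were 0.02 and 0.28, beside -0.15 and -0.20 over all genes. With the columns rescaled to a common median the members' medians were 0.18 and 0.47, beside -0.01 and 0.00 over all genes. Krt17 knockout back skin had 0 members higher and 1 lower at 6 h, against 1.6% and 1.12% of all genes, and none in either direction at 24 h, against 1.64% and 1.14%. The medians were -0.05 and -0.13, beside -0.04 and -0.09 over all genes. Back skin labelled p53 knockout had 0 higher and 2 lower at 6 h, against 2.11% and 1.03% of all genes, and again 0 and 2 at 24 h, against 0.908% and 1.06%. Its medians were -0.06 and -0.34, beside 0.02 and 0.04 over all genes. Within each genotype both time points share the 0 h column.

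Over the 3 genotypes, Serpinb12 and Serpinb6d were lower in all 6 irradiated groups than in all 3 unirradiated ones, where 1.92% of all genes were. No member lay above in all 6, against 1.18% of all genes. Serpinb12, abundant in footpad, was a minor member here, with 8.63, 6.09 and 4.42 FPKM at 0, 6 and 24 h in wild type, 9.99, 4.32 and 5.75 in Krt17 knockout and 11.5, 4.19 and 5.29 in p53 knockout back skin. The log2 ratios were -0.44 and -0.83, -1.05 and -0.70, and -1.27 and -0.99 in this order, so 2-fold was passed at 6 h in both knockouts.

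Serpinb6d had 8.56 FPKM in unirradiated wild-type back skin, then 1.92 and 1.44 FPKM. Krt17 knockout skin had 2.41 FPKM at 0 h, then 1.19 and 1.80, and p53 knockout skin 4.61, then 1.40 and 1.74. The 3 unirradiated groups differed more among themselves than the 6 irradiated ones did. The log2 ratios were -1.71 and -1.97 in wild type, -0.64 and -0.28 in Krt17 knockout, and -1.23 and -1.03 in p53 knockout skin.

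Serpinb1a was higher at 24 h in all 3 genotypes but differed at 6 h. It stood at 5.76, 3.32 and 13.4 FPKM in wild type, at 4.84, 2.97 and 10.3 in Krt17 knockout and at 4.53, 9.28 and 9.01 in p53 knockout back skin. The 24 h groups were the highest in wild type and Krt17 knockout, with log2 ratios of 1.09 and 0.95, and p53 knockout stood at 0.86. At 6 h the ratio was 0.89 in p53 knockout but -0.65 and -0.56 in wild type and Krt17 knockout. Summed neutrophil markers at 6 h were 42.2 FPKM in p53 knockout skin, the highest of the 9 back skin groups, of which the other 8 lay between 4.90 and 12.2 FPKM. Retnlg gave 27.2 of these, and Cxcr2 with 3.63, Csf3r with 1.84, Camp with 2.82, Mmp8 with 1.73, Ngp with 0.933 and Ly6g with 0.931 FPKM also had their highest back skin values there. Mpo, Mmp9 and Cd177 did not. They stood at 0.238, 2.77 and 0.127 FPKM there, against 0.663, 4.15 and 0.139 FPKM in p53 knockout skin at 0 h. Of the 7 neutrophil markers compared, 3 were higher than at 0 h by 2-fold, Cxcr2, Retnlg and Mmp8, and none was lower. Of all genes, 2.11% were higher and 1.03% lower in that comparison. The stressed keratinocyte sum was also highest in p53 knockout skin at 6 h, at 1273 FPKM against 302 to 806 FPKM in the other 8. S100a8 gave 453, S100a9 348 and Krt16 223 FPKM of this sum. Krt6a of the same list, at 126 FPKM, was at its lowest of the back skin groups there. The part of these markers in the Serpinb1a values was not tested.

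Serpinb3a reached 2.83 and 2.35 FPKM in p53 knockout back skin at 0 h and 6 h and 0.123 FPKM at 24 h, a log2 ratio of -1.77. In wild-type back skin it had 0.299, 0.301 and 0.191 FPKM and in Krt17 knockout skin 0.0943, 0.242 and 0.0819 FPKM. The p53 knockout groups at 0 h and 6 h thus stood apart from the other 7. Serpinb3a passed the filter of 1 FPKM in back skin through these groups alone, so its count as lower at 24 h is not independent of the filter. The footpad groups, in their own table, had 91.0 FPKM or more. Serpinb3b was also highest in p53 knockout skin at 0 h, with 7.50 FPKM, then 5.67 and 3.67, against 2.46 to 4.39 FPKM in the 6 groups of the other genotypes. Serpinb6c, higher in footpad after 40 Gy, showed no common direction here, with 2.51, 4.16 and 5.70 FPKM in wild type, 3.18, 4.21 and 2.82 in Krt17 knockout and 3.73, 5.32 and 1.99 in p53 knockout skin.

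Serpinb6a, the most abundant chromosome 13 member, had 105, 158 and 151 FPKM in wild-type, 165, 159 and 213 in Krt17 knockout and 115, 157 and 134 in p53 knockout back skin, with log2 ratios of -0.05 to 0.58. Serpinb5 is known as a gene that p53 can activate. It stood at 166, 162 and 157 FPKM in wild-type, 181, 174 and 146 in Krt17 knockout and 195, 204 and 188 in p53 knockout back skin. In the columns as given its highest 3 values were the p53 knockout ones. With columns rescaled to a common median, p53 knockout skin at 24 h falls below Krt17 knockout skin at 0 h and 6 h, so this order depends on the scaling. The log2 ratios of Serpinb5 after irradiation lay between -0.30 and 0.07. Serpinb2 had its highest back skin value, 58.9 FPKM, in p53 knockout skin at 6 h and otherwise lay between 20.1 and 39.3 FPKM. Serpinb8 lay between 29.9 and 52.8 FPKM, Serpinb7 between 34.1 and 54.4 and Serpinb11 between 10.7 and 16.0, all within 2-fold of their 0 h group. Serpinb6e, for which all back skin groups lay above the footpad ones, ranged from 2.64 to 8.62 FPKM.

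**Figure D3:**
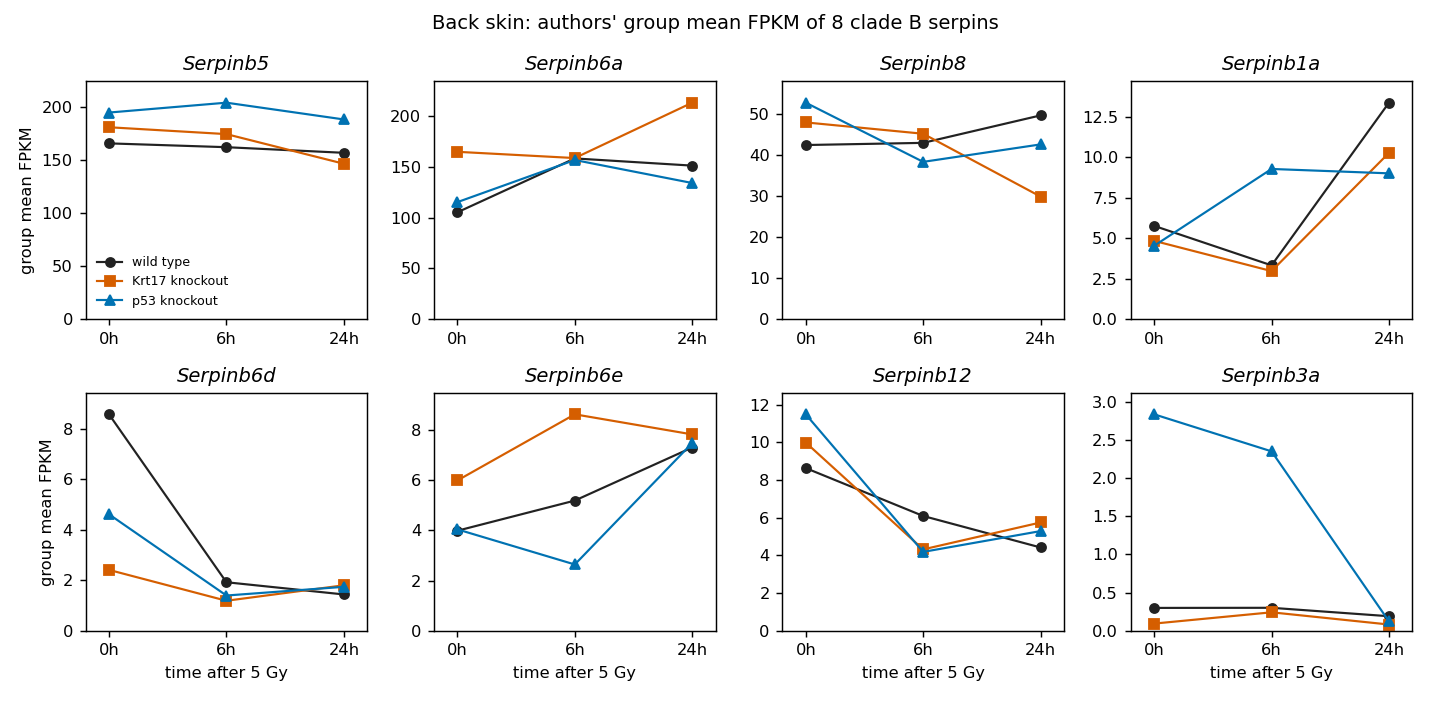
Group mean FPKM of 8 members in back skin, unirradiated (0 h) and 6 h and 24 h past 5 Gy, for wild type (black circles), Krt17 knockout (orange squares) and p53 knockout (blue triangles); each point is 1 authors' mean of 2 samples and times are spaced evenly. Serpinb12 and Serpinb6d are lower in all irradiated groups, Serpinb1a separates p53 knockout at 6 h (9.28 FPKM) from the other genotypes, and Serpinb5 changes little.

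Before irradiation the knockouts differed from wild type in few members. Krt17 knockout footpad had 3 of 17 members higher, Serpinb3a, Serpinb3d and Serpinb6d, with log2 ratios of 1.41, 1.89 and 1.53, and none lower. Of all genes 0.91% were higher and 0.51% lower, and the members' median was 0.24 beside 0.02. Serpinb6d passed the filter of 1 FPKM in footpad only through the knockout, at T0 with 2.28 FPKM and at T9 with 1.23. Its place in this count is therefore not independent of the filter. The wild-type T0 column used here is also the base of the wild-type radiation ratios of Serpinb3a and Serpinb3d, so these are not separate observations. Of 8 stressed keratinocyte markers 3 were also higher in the knockout at T0, Sprr2d at 207 against 67.5 FPKM, S100a8 at 22.1 against 6.56 and S100a9 at 11.04 against 2.69, while the sum of all 8 was 772 against 775 FPKM. Stfa2 stood at 14.7 against 5.17 FPKM, and skeletal muscle markers summed to 184 against 93.0 FPKM, with Acta1 higher by 2-fold. The part of these genes in the difference was not tested. In back skin, Krt17 knockout had 0 of 15 members higher and 1 lower, Serpinb6d at -1.49, against 0.929% and 0.668% of all genes. The medians were 0.13 for the members and -0.08 for all genes. Back skin labelled p53 knockout had 1 member higher, Serpinb3a at 1.56, and none lower, against 1.13% and 0.635% of all genes. The medians were 0.23 and -0.01. Serpinb3a passed the filter of 1 FPKM in back skin only through p53 knockout skin at 0 h and 6 h, so its count as higher is not independent of the filter. Both back skin comparisons share the wild-type 0 h column. Serpinb6d thus stood above wild type in Krt17 knockout footpad and below it in Krt17 knockout back skin.

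**Figure D4:**
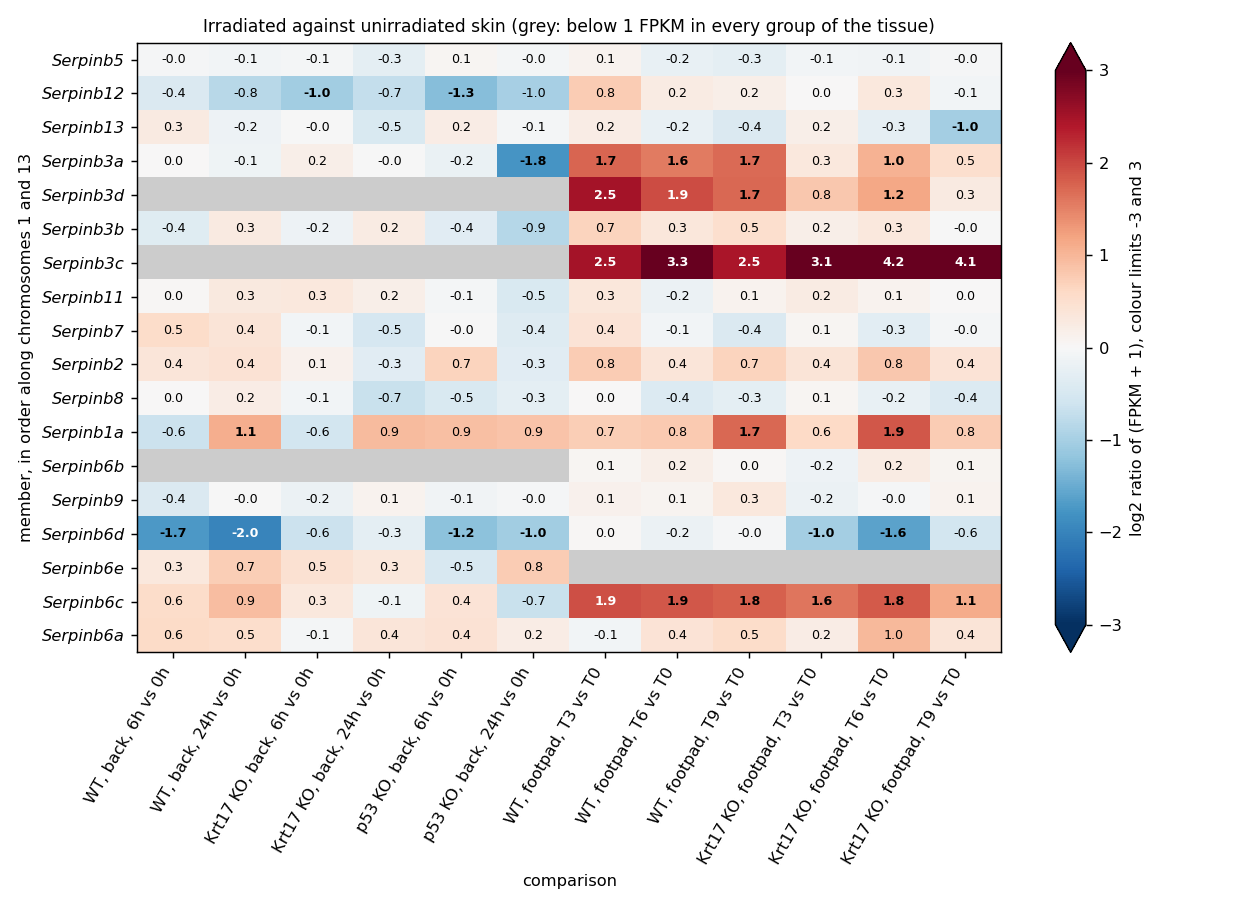
Log2 ratios of (FPKM + 1) of irradiated to unirradiated skin for the 18 members that reached 1 FPKM in a tissue (rows, in order along chromosomes 1 and 13) in 12 comparisons (columns), with bold figures from 2-fold on and grey for members below 1 FPKM in every group of the tissue. The 6 footpad columns are red for Serpinb3c and Serpinb6c, the 6 back skin columns are blue for Serpinb12 and Serpinb6d, and Serpinb5 is pale throughout.

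A fixed list of proteases, only some of them known targets of clade B serpins, was followed beside the members. Of 22 listed proteases, 18 were compared in footpad and none was lower by 2-fold at any point. At T3, T6 and T9, the wild-type footpad had 0, 3 and 2 of them higher and the Krt17 knockout 0, 2 and 3. Of all genes, 1.48%, 2.47% and 3.15% were higher in wild type and 1.99%, 4.0% and 2.2% in the knockout. The shares of all genes lower at these points were 1.14% to 2.23%. Ctsk, a cathepsin that the human squamous cell carcinoma antigens inhibit, had 12.6, 14.0, 33.4 and 28.6 FPKM in wild-type and 13.8, 16.0, 36.0 and 25.9 FPKM in knockout footpad. Klk6, a kallikrein of the epidermis, had 6.81, 9.96, 9.80 and 64.4 FPKM in wild-type and 14.3, 18.4, 47.2 and 32.2 FPKM in knockout footpad, so its highest groups were those of Serpinb1a. The RNA of the target proteases of Serpinb1a and Serpinb9 was at low levels, and the protease proteins were not measured. Elane (neutrophil elastase) did not exceed 0.204 FPKM, Ctsg (cathepsin G) 0.459 FPKM and Gzmb (granzyme B) 0.910 FPKM in any group of either tissue. Prtn3 (proteinase 3) stood at 0 to 0.479 FPKM in footpad and at 0.739 to 3.51 FPKM in back skin. In back skin 19 proteases were compared. In wild type 2 were lower at 6 h and 1 higher at 24 h, in Krt17 knockout 1 was lower at 6 h, and in p53 knockout 1 was lower at 24 h, with no other 2-fold difference. Of all genes, 0.908% to 2.14% were higher and 1.03% to 3.41% lower in the back skin comparisons.

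Inhibitors of other families included several that were higher in irradiated footpad. Of 13 compared, which include the cysteine protease inhibitors Stfa1, Stfa2 and Stfa3 and the elastase inhibitor Slpi, 2, 5 and 5 were higher at T3, T6 and T9 in wild type and 4, 6 and 4 in the knockout, and none was lower. Of all genes, 1.48%, 2.47% and 3.15% were higher in wild type and 1.99%, 4.0% and 2.2% in the knockout, and 1.14% to 2.23% were lower. The list was chosen with earlier results of these data known, so its counts are not independent of them. Stfa2 had 5.17, 36.3, 23.4 and 955 FPKM in wild-type and 14.7, 31.0, 1106 and 175 FPKM in knockout footpad, with its peaks in the same groups as Serpinb1a. In the plasminogen activation list, with 5 genes compared, Serpine2, a secreted inhibitor of thrombin and urokinase from another clade, was higher in all 6 footpad comparisons. It had 6.96, 19.5, 29.7 and 22.3 FPKM in wild-type and 6.13, 26.8, 35.4 and 18.2 FPKM in knockout footpad. Plau, the urokinase that Serpinb2 inhibits, stayed between 7.99 and 12.6 FPKM in footpad and 7.17 and 13.7 FPKM in back skin.

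The factor AP-1 takes part in keratinocyte differentiation and stress responses, and its motif was among 3 searched upstream of the members. The AP-1 letters TGANTCA, which read the same on both strands, occurred in the 250 bases upstream of 6 of the 24 members with a RefSeq start, and in 6.73% of 32536 such windows of all genes. Counted by window, as that share is, 7 of the members' 30 windows held a match, and both windows of Serpinb2 hold the same site. All 6 members with a match lie on chromosome 1, where 10 members have a window, against 14 on chromosome 13. The 27 bases around each match are shown so that each match can be read in its context, and capitals mark the match.
Serpinb5: aagttgggccTGAATCAtgtcttccaa
Serpinb12: aaaaacaatcTGATTCAcgatcattat
Serpinb11: aagtatagtgTGATTCAgaaagcacag
Serpinb11: ggtgaagagcTGAATCAtaacaacaca
Serpinb7: agggagtgtcTGAGTCAgaggctttat
Serpinb2: agtaaaatgtTGAATCAtacaaagaat
Serpinb8: gtgggaagtgTGAGTCAcagagtgttc
The matches begin 140 bases before the start of Serpinb5, 45 before Serpinb12, 181 and 76 before Serpinb11, 45 before Serpinb7, 94 before the nearer start of Serpinb2 and 23 before Serpinb8. The windows of Serpinb3a, Serpinb3c, Serpinb3d, Serpinb6c and Serpinb6a hold no such letters, and Serpinb13 and Serpinb1a have no window in the table. Another pair of motifs was searched on both strands. The C/EBP letters TTGCNNAA occurred upstream of 3 of the 24 members, Serpinb12, Serpinb3d and Serpinb2, and in 9.57% of all windows. The STAT6 motif, a spaced palindrome, occurred upstream of 2, Serpinb7 and Serpinb1b, and in 5.89% of all windows. Counted by window, 4 of the members' 30 windows held the C/EBP letters and 2 held the STAT6 motif. No match of 1 motif overlapped a match of another in the members' windows. A match of letters is a description of the window and says nothing of binding.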

How the data were processed

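Bulk RNA-seq of 34 mouse skin samples in 17 groups was used through the authors' deposited FPKM, 1 table of 47633 rows for each tissue, with a mean column for every group. Per the submitters' processing notes, TopHat2 2.1.0 and Cufflinks 2.2.1 were used with build mm10. The annotation, the strand setting and the averaging are not given in the sources used here. Symbols on several rows, 116 in number, were left out. Where a gene's other columns had a median of at least 5 FPKM, a listed 0 was set to missing (19 values in back skin, 32 in footpad, no member).

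For each gene the log2 ratio of (FPKM + 1) was taken between groups, among genes at 1 FPKM or more in at least 1 group of the tissue, and counted from 2-fold on. With group means alone there is no test, spread or interval, and limma could not be fitted. Alternatives were a pseudocount of 0.1 FPKM, a filter of 5 FPKM, no filter, listed zeros kept, and columns rescaled to a common median. Members and lists were chosen with earlier results of these data known. Every group value is given for members with 5 FPKM or more in a group and a 2-fold difference after irradiation, and for the highest member of each tissue; genes that are no members come from fixed lists of proteases, inhibitors and cell markers. Positions are from GENCODE M21 (GRCm38), upstream sequence from RefSeq (GRCm38.p6). The counting was tested on simulated data. Python 3.11.15, numpy 2.4.6, pandas 2.3.3, biopython 1.88 and matplotlib 3.10.9 were used.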

Additional observations from a re-analysis of the deposited data

Results flagged for a closer look

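Serpinb10 was not among the members because its symbol stands on 2 rows, and both rows held signal in irradiated skin. The row ENSMUSG00000092572 reached 88.3 FPKM in an irradiated footpad group (Krt17 knockout at T3), against 43.9 and 31.6 FPKM in the unirradiated knockout and wild-type groups. In back skin the same row reached 4.23 FPKM in an irradiated group (p53 knockout at 6 h), against 3.71 FPKM in unirradiated skin of that genotype. The row ENSMUSG00000102843 reached 1.68 FPKM in irradiated back skin, in wild type at 24 h, against 0.335 FPKM at 0 h. Its highest value of all was 6.34 FPKM in unirradiated Krt17 knockout footpad, where it was listed at 0 at T3 and T9. Serpinb10 shares 50-base windows with Serpinb2, and these values stand outside the counts above.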

How the results depend on the processing

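Of the 30 counts of members (15 comparisons in each direction), 28 kept within 1.5 times of the reported count after rescaling of columns, 26 with a filter of 5 FPKM, 23 with a pseudocount of 0.1 FPKM, and all 30 without a filter and with listed zeros kept as 0. Log2 ratios were also compared for the members with every group value given. No ratio that passed 2-fold in either setting changed sign under these alternatives. After rescaling of columns, 3 ratios below 2-fold did change sign. After rescaling, members higher at 24 h numbered 2 in wild-type back skin and 1 in Krt17 knockout back skin. With a filter of 5 FPKM, members lower numbered 1 in p53 knockout skin at 24 h and 0 in Krt17 knockout footpad at T3 and at T6, and members higher in unirradiated p53 knockout against wild-type skin numbered 0, since members with low FPKM leave the comparison. With a pseudocount of 0.1 FPKM, which weighs low values more, members higher numbered 2 in wild-type back skin at 24 h, 1 in Krt17 knockout skin at 24 h, 1 in p53 knockout skin at 6 h and 2 in unirradiated p53 knockout against wild-type skin. Under it members lower numbered 4 in p53 knockout skin at 24 h, 1 in wild-type footpad at T6 and 2 in unirradiated Krt17 knockout against wild-type back skin. No paired analysis was possible because the tables hold group means without single samples, and leaving out replicates was not run for the same reason. The unknown depth and spread limit every value, most of all those of members near 1 FPKM.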
